A study of Mus musculus with 16 samples.

Results

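A set of 10 genes of 3 signalling systems through which bone cells pass on a mechanical load was followed in unloaded bone. They belong to the prostaglandin system (Ptgs1, Ptgs2, Ptges, Ptgis, Ptger2 and Ptger4), nitric oxide synthesis (Nos2 and Nos3) and the response to extracellular nucleotides (P2rx7 and P2ry2). They were picked by gene symbol, 10 of the 36829 features measured, and each symbol stood for a single feature. RNA was taken from the cortical bone of the femur of female C57Bl/6 mice aged 11 weeks. The HLU group (8 mice, HLU 1 to 8) had spent 7 days with the tail fixed to a harness that kept the hind feet off the floor (hindlimb unloading), and the control group (8 mice, Control 1 to 8) bore weight normally. The labels give no genotype beyond the strain for the 16 mice, each gave 1 RNAseq library, and the bone ends had been cut off and the marrow flushed out in both groups. Values are RPKM, the reads on a gene scaled to the length of the gene and to the reads of the library.

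Osteocytes, the cells buried in bone matrix, release prostaglandins, nitric oxide and ATP within moments of being strained. Cyclooxygenases turn arachidonic acid into prostaglandin H, which terminal synthases convert to prostaglandin E or prostacyclin, and the E form raises cAMP in bone cells through the receptors encoded by Ptger2 and Ptger4. Nitric oxide acts on soluble guanylate cyclase in neighbouring cells, while ATP opens the channel encoded by P2rx7 and activates the G protein-coupled receptor encoded by P2ry2. All of these systems also serve platelets, leukocytes and vessel walls, which whole bone contains.

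Sequences before the transcription start are shown for 4 of the genes, because they form the pairs that the values below turn on: Ptgs1 and Ptgs2, which catalyse the same step at very different abundance, and Ptger4 and P2ry2, which moved in opposite directions between mice. Each is the 250 bases upstream of a RefSeq start on GRCm38.p6, written 5′ to 3′ on the strand of the gene. The capitals mark a GC box (GGGCGG) or a shear stress response element (GAGACC), searched on both strands, so that CCGCCC and GGTCTC are the same motifs on the opposite strand. The windows are chr2:36230176-36230425 on the plus strand for Ptgs1, chr1:150099781-150100030 on the plus strand for Ptgs2, chr15:5244188-5244437 on the minus strand for Ptger4 and chr7:101012054-101012303 on the minus strand for P2ry2.
Ptgs1: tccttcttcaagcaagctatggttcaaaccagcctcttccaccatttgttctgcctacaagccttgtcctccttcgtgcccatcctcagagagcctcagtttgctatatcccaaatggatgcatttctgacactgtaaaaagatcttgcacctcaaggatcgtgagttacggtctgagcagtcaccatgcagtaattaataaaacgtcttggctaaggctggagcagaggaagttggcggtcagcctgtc
Ptgs2: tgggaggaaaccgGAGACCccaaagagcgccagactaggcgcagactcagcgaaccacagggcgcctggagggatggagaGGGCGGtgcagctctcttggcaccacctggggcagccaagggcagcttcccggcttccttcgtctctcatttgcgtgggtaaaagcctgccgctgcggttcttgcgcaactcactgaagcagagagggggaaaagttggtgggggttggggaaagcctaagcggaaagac
Ptger4: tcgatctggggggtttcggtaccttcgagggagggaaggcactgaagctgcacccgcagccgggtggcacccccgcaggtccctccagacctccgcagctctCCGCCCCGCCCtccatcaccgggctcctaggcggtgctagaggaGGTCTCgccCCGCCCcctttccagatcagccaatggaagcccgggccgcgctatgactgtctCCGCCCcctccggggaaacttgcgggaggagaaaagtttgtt
P2ry2: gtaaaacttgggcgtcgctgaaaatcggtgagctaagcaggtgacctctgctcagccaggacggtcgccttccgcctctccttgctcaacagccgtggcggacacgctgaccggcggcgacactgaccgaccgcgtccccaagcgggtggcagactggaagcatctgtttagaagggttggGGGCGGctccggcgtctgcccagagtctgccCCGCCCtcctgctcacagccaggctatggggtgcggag
Entries were found for 7 of the 10 genes (not Ptgis, Nos2 and Nos3), and those of Ptges, Ptger2 and P2rx7 are not printed. The Ptgs1 window held none of the 7 motifs searched and had a GC content of 48.0%, against 61.6% for Ptgs2, 66.8% for Ptger4 and 65.2% for P2ry2. Ptgs2 held a GC box 170 bases and a shear stress response element 237 bases before the start, and 183 bases of its window overlapped exons of the antisense gene Ptgs2os. Ptger4 held 4 GC boxes and a shear stress response element, all on the opposite strand, and P2ry2 held 2 GC boxes. A second RefSeq start of P2ry2 lies downstream, and its window, chr7:101011999-101012248, held 4 GC boxes and an E-box 18 bases before that start. It is not printed because 39 of its bases overlap an exon of the gene. The bases right after that second start were found in a P2ry2 transcript of GENCODE M21, a gene annotation. Those after the start of the printed window were not. The printed P2ry2 window also lies inside the span of the gene in that annotation (chr7:100996568-101012866). The GC box occurred in 32.7% and the shear stress response element in 13.7% of 32851 such windows of the genome. The other motifs searched were the TATA box (TATAAA, 12.4% of windows), the core of the cAMP response element (TGACGT, 6.47%), the AP-1 site (TGANTCA, 6.75%), the NF-kB site (4.11%) and the E-box (CACGTG, 6.02%), and none of these was found in the 4 windows shown. A match describes the letters only.

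The libraries had 7067512 to 21363584 reads in the divisor of their RPKM values. The smallest were Control 2 and HLU 5 (7067512 and 7838277 reads), and 3 reads on a gene of 1 kilobase corresponded to 0.14 to 0.42 RPKM. The share of those reads that fell outside the features kept for testing was 11.6% ± 4.32 (SD) in control and 15.4% ± 5.32 in HLU mice, a difference within the spread (exact permutation p = 0.136). Reads inside were summed over the 16972 of 16973 kept features with whole reads recovered, so the share outside also holds the reads of any kept feature not recovered. Osteoblast and osteocyte markers were present in every library, with a summed level of 823 to 1879 RPKM in control and 1057 to 2405 in HLU mice for 12 of 12 genes, as fits the labelled tissue. Marrow and blood markers were present as well, and no marker found was at 0 in all libraries. The 7 neutrophil markers found summed to 17830 to 38360 RPKM in control and 12690 to 45220 in HLU mice. That sum lay above the sum of the osteoblast and osteocyte markers in every library, so the libraries held much marrow RNA. The 8 megakaryocyte markers found summed to 984 to 1648 RPKM in control and 427 to 1419 in HLU mice, and the mean log2 level of that list was lower in HLU mice (-0.55, exact permutation p = 0.0389, unadjusted over 11 lists). The 10 erythroid markers summed to 2382 to 6039 RPKM in control and 1192 to 3203 in HLU mice (-0.58 on the log2 scale, exact permutation p = 0.0647). None of the 8 skeletal muscle markers was among the features analysed here, so the muscle content of the samples could not be assessed. In bulk bone, fewer cells of a type and less RNA per cell cannot be told apart.

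Unloading for 7 days left the transcript abundance of these genes within the spread between mice. Of the 10 genes 8 had a mean of at least 0.5 RPKM and entered the comparison across 16973 features (limma on log2(RPKM + 0.1), a scale that understates the change of low genes), and Ptgs2 and Nos2 lay below that level. None of the 8 was higher and none was lower in HLU mice at an unadjusted p under 0.05 with a change of at least 1.2-fold. Over all features, 1.11% were called higher and 4.76% lower, 5.87% in all (188 and 808 features). After median-of-ratios rescaling of the libraries the split was 381 higher and 394 lower. After Benjamini-Hochberg adjustment 0 of 16973 features (0%) passed an adjusted p under 0.1 with a 1.2-fold change, in the limma fit and in limma-voom on the reads recovered from the RPKM values. The authors, who used DESeq2, reported some genes that passed these thresholds, both higher and lower after unloading. The 0% therefore holds for the fits used here. The median log2 fold change was -0.01 over the 8 genes and -0.10 over all features. That general shift was -0.01 after rescaling, and the median of the 8 genes was then 0.08.

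**Figure D1:**
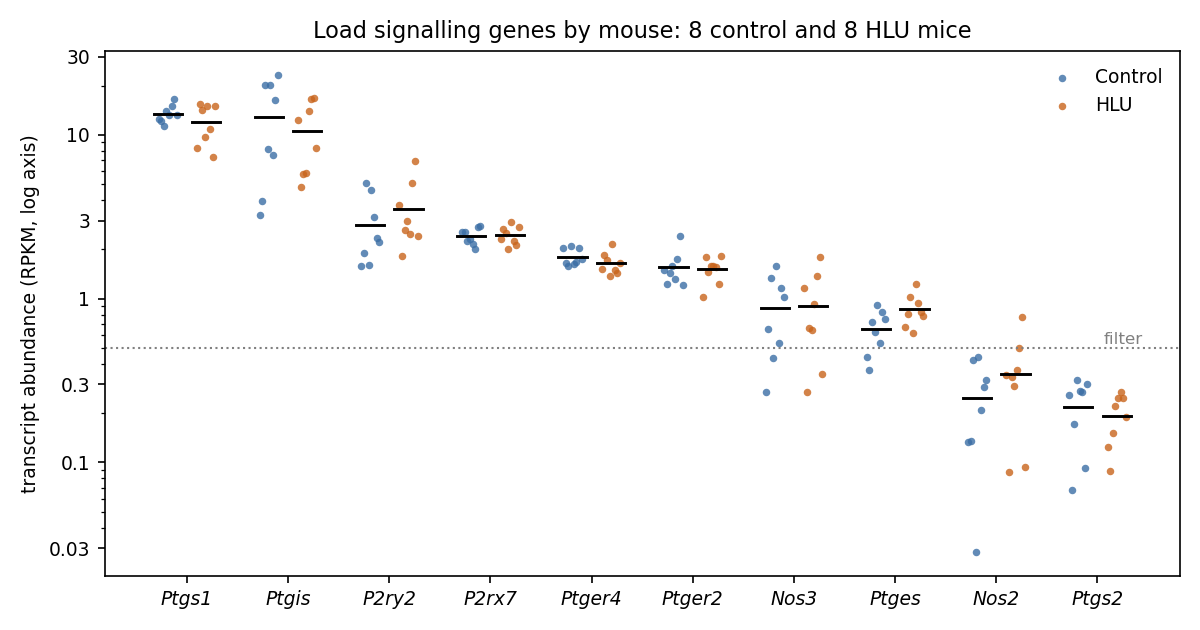
Transcript abundance (RPKM, log axis) of the 10 genes in each of 8 control (blue) and 8 HLU (orange) mice, ordered by mean level, with the group mean as a black bar and the filter of 0.5 RPKM as a dotted line. The groups overlap for every gene, and the mice spread widely for Ptgis, Nos3, P2ry2 and Nos2 and narrowly for Ptger4 and P2rx7.

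The cyclooxygenases catalyse the first committed step of prostaglandin synthesis. Ptgs1, the constitutive form, lies at chr2:36230426-36252272 on the plus strand (GRCm38), where Gm43621 overlaps it on the opposite strand. Its abundance was 11.3, 13.3 and 16.6 RPKM (lowest, median and highest) in control mice and 7.29, 12.5 and 15.4 RPKM in HLU mice. Of the HLU mice 4 (HLU 1, 4, 6 and 7) lay below every control mouse, at 8.33, 9.73, 10.9 and 7.29 RPKM, and the other 4 lay within the control range. The coefficient of variation was 12.5% in control and 27.5% in HLU mice. The log2 fold change was -0.22 (SE 0.16, 95% interval -0.55 to 0.12, limma p = 0.195, adjusted p = 0.760), and the exact permutation test gave p = 0.205. The 4 HLU mice with low Ptgs1 were also the 4 with the largest share of reads outside the kept features in that group, at 18.0%, 14.7%, 21.3% and 24.2%. When a score of marrow cell markers was added to the fit, the log2 difference was 0.0005, and the part of these measures in the difference was not tested.

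Ptgs2, the inducible form, was barely detected in either group. It lies at chr1:150100031-150108227 on the plus strand, and its 2 to 24 reads per library gave 0.0683, 0.264 and 0.317 RPKM in control and 0.0881, 0.206 and 0.271 RPKM in HLU mice. The control median exceeded 7 of the 8 HLU mice, but all lay within the control range. The exact permutation test gave p = 0.682, and the fit without a filter gave an adjusted limma p of 0.937 with a log2 difference of -0.09 (95% interval -0.58 to 0.41). One control library held 2 reads, under the 3 reads taken as the detection limit, so a change in this gene was not detectable at this depth unless it was large. Per mouse, Ptgs1 exceeded Ptgs2 by 44.0 to 178-fold in control and 29.3 to 175-fold in HLU mice (medians 51.9 and 64.0, exact permutation p = 0.774, a ratio chosen after the values were seen).

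Ptges was the only one of the 10 genes with an unadjusted exact permutation p below 0.05. It encodes the inducible synthase of prostaglandin E and lies at chr2:30889471-30929863 on the minus strand, with Gm13400 inside it on the same strand. Its abundance was 0.369, 0.674 and 0.920 RPKM in control mice and 0.617, 0.812 and 1.23 RPKM in HLU mice, from 23 to 177 reads. The control median was exceeded in 6 HLU mice and the highest control value in 3, while the lowest HLU mouse exceeded 3 control mice. The mean was 1.30-fold higher in HLU mice on the log2(RPKM + 0.1) scale (log2 0.38, SE 0.20, 95% interval -0.05 to 0.81). The exact permutation test gave p = 0.0452, and limma gave p = 0.0812 with an adjusted p of 0.744, so that the gene was not called. It passed the unadjusted threshold after rescaling (log2 0.46), after quantile normalization (0.41) and without Control 5 (0.45), and its adjusted limma p was 0.420 to 1.0 over 29 alternatives. Without the 2 smallest libraries, Control 2 and HLU 5, the log2 difference of Ptges was 0.22, and the gene was not called. Control 2 held its lowest control value (0.369 RPKM, 23 reads) and HLU 5 its highest HLU value (1.23 RPKM, 85 reads). The size of the difference therefore rested in part on these 2 libraries. The gene length implied by the files is 8816 bases against 3931 bases of exons in GENCODE M21, so the feature covered more sequence than the transcripts of that release.

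Ptgis, the synthase of prostacyclin, was close to Ptgs1 in abundance and varied most between mice among the 8 genes past the filter. It lies at chr2:167191805-167240604 on the minus strand, where 1110018N20Rik and Gm14291 overlap it on the opposite strand. Its abundance was 3.25, 12.3 and 23.3 RPKM in control and 4.84, 10.3 and 16.9 RPKM in HLU mice, a 7.17-fold range over the 16 mice. Values left a gap between 8.31 and 12.3 RPKM, with 4 control mice (3, 5, 7 and 8) and 4 HLU mice (1, 5, 6 and 7) above it. The log2 fold change was -0.12 (SE 0.43, 95% interval -1.02 to 0.79, limma adjusted p = 0.947), and the exact permutation test gave p = 0.799. The interval leaves room for a change to 0.49-fold or 1.73-fold.

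The prostaglandin E receptors that raise cAMP, encoded by Ptger4 and Ptger2, differed between groups by less than the spread between mice. Ptger4 (chr15:5206661-5244187, minus strand, overlapped on the other strand by Ttc33 and Gm15937) was at 1.57, 1.72 and 2.10 RPKM in control and 1.37, 1.59 and 2.15 RPKM in HLU mice. Again HLU 1, 4, 6 and 7 lay below every control mouse, and 1 HLU mouse lay above. The log2 fold change was -0.13 (95% interval -0.39 to 0.13, limma adjusted p = 0.779), and the exact permutation test gave p = 0.177. Ptger2 (chr14:44988195-45003820, plus strand, overlapped on the other strand by Gm49364 and Gm17173) was at 1.21, 1.46 and 2.42 RPKM in control and 1.03, 1.58 and 1.82 RPKM in HLU mice. Its highest value, in Control 7, stood apart from the other control mice. The log2 difference was -0.03 (95% interval -0.36 to 0.31, limma adjusted p = 0.968), the exact permutation test gave p = 0.850, and the sign turned to 0.06 after rescaling. The ratio of Ptger4 to Ptger2 had a median of 1.27 in control and 1.10 in HLU mice (exact permutation p = 0.437).

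Nos3, the endothelial nitric oxide synthase, was more abundant than Nos2, the inducible form. It lies at chr5:24364810-24384474 on the plus strand and is overlapped on the opposite strand by Gm15587 and Atg9b, whose reads could not be separated from it if the counting ignored strand. Its abundance was 0.268, 0.836 and 1.59 RPKM in control and 0.268, 0.795 and 1.79 RPKM in HLU mice, so that the groups covered almost the same range. The log2 difference was 0.01 (SE 0.38, 95% interval -0.80 to 0.82, limma adjusted p = 0.996), and the exact permutation test gave p = 0.985. With the share of reads outside the kept features as a covariate, an alternative added after seeing the data, it was -0.54 and passed the unadjusted but not the adjusted threshold (limma adjusted p = 0.818).

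Nos2 (chr11:78920787-78960254, plus strand), had 2 to 57 reads per library. It was at 0.0285, 0.250 and 0.438 RPKM in control and 0.0871, 0.337 and 0.778 RPKM in HLU mice. HLU 6 and HLU 7, at 0.503 and 0.778 RPKM, exceeded every control mouse, and HLU 2 and HLU 8 were below 0.1 RPKM. The exact permutation test gave p = 0.362, and the fit without a filter gave a log2 difference of 0.34 (95% interval -0.42 to 1.10, limma adjusted p = 0.823). Nos3 exceeded Nos2 in every mouse, by 2.01 to 15.2-fold in control and 2.01 to 3.69-fold in HLU mice (medians 3.41 and 2.64, exact permutation p = 0.0886, chosen after the values were seen). The highest ratio, in Control 4, rested on 2 reads of Nos2.

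The nucleotide receptors differed in their spread, P2rx7 being the steadier. P2rx7, the ATP-gated channel (chr5:122643911-122691432, plus strand, with Mir8115 inside it), was at 2.01, 2.42 and 2.77 RPKM in control and 2.00, 2.41 and 2.94 RPKM in HLU mice. Its log2 difference was 0.01 with the narrowest interval of the 8 genes (SE 0.11, -0.22 to 0.25, limma adjusted p = 0.981, exact permutation p = 0.899), which spans 0.86-fold to 1.19-fold. P2ry2, the receptor for ATP and UTP (chr7:100996568-101012866, minus strand), was at 1.59, 2.29 and 5.07 RPKM in control and 1.83, 2.80 and 6.88 RPKM in HLU mice. The control median was exceeded in 7 HLU mice and the highest control value in 2, but the ranges overlapped broadly. The log2 fold change was 0.31 (SE 0.29, 95% interval -0.31 to 0.93, limma adjusted p = 0.780), and the exact permutation test gave p = 0.330. The difference was -0.03 with the marrow marker score and -0.16 with the share of reads outside the kept features as a covariate.

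**Figure D2:**
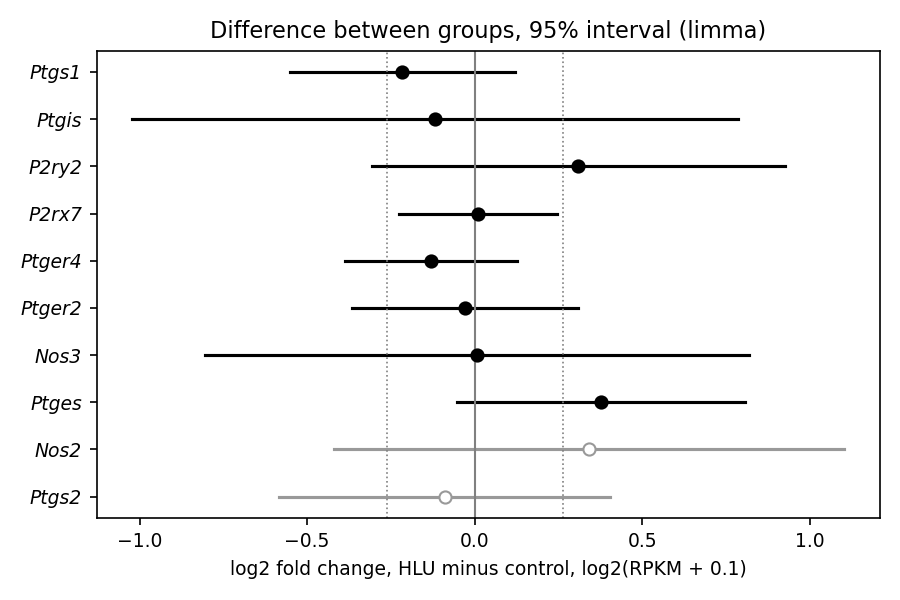
Log2 fold change of HLU against control on the log2(RPKM + 0.1) scale with its 95% interval from limma, for the 8 genes past the filter (filled) and for Ptgs2 and Nos2 from the fit without a filter (open, grey), with dotted lines at a 1.2-fold change. Every interval includes 0, from the narrow one of P2rx7 (-0.22 to 0.25) to the wide one of Ptgis (-1.02 to 0.79).

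The other genes of the 3 systems were read from lists of enzymes, transporters, receptors and downstream effectors. Of 25 further prostanoid genes tested none was called in either direction, with a median log2 fold change of -0.10, the same as over all features. The best expressed were Hpgd, which degrades prostaglandins (50.4 ± 14.3 RPKM in control and 44.5 ± 11.8 in HLU mice, mean ± SD), the phospholipase gene Pla2g12a (15.9 ± 3.37 and 15.5 ± 2.98) and Ptges3 (15.2 ± 2.82 and 12.5 ± 3.31), which encodes a cytosolic prostaglandin E synthase and cochaperone. The exact permutation test gave p = 0.395, 0.877 and 0.0842 for these 3 genes. Of 21 nitric oxide genes 2 were called lower and none higher, and of 28 purinergic genes 1 was called lower and none higher, against 4.76% lower over all features. The median log2 fold change was -0.10 and -0.01 in these lists. None of these 74 genes passed the adjusted threshold.

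Ass1, argininosuccinate synthase, which helps to regenerate the arginine that nitric oxide is made from, was at 1.81, 2.19 and 3.50 RPKM in control and 0.750, 1.47 and 2.71 RPKM in HLU mice. The control median exceeded 7 of 8 HLU mice. It was lower by the unadjusted rule (log2 -0.61, SE 0.22, limma p = 0.0133, adjusted p = 0.744, exact permutation p = 0.0157), and lost the call with the marrow marker score or the share of reads outside the kept features as a covariate. Gch1, GTP cyclohydrolase, the first enzyme in the synthesis of the cofactor of nitric oxide synthases, was at 9.74, 12.8 and 23.2 RPKM in control and 5.81, 8.47 and 17.4 RPKM after unloading. It differed by a log2 fold change of -0.51 (SE 0.24, limma p = 0.0487, adjusted p = 0.744, exact permutation p = 0.0648), and the call was lost without any 1 of Control 1, 2, 3, 4, 7 or 8 or HLU 1, 4, 5, 6 or 7, after rescaling or quantile normalization, with array weights, with the replicate block, without the 2 smallest libraries and with each of the 4 covariates tried (marrow score, osteoblast and osteocyte score, share of reads outside and GC slope). P2ry1, a receptor for ADP on platelets and other cells, was at 7.46, 10.1 and 17.0 RPKM in control and 4.98, 8.12 and 11.6 RPKM after unloading. It differed by a log2 fold change of -0.44 (SE 0.18, limma p = 0.0298, adjusted p = 0.744, exact permutation p = 0.0375), and the call was lost without Control 4 or 6 or HLU 1, 6 or 7, after rescaling or quantile normalization, and with the marrow score, the osteoblast and osteocyte score or the share of reads outside as a covariate. The megakaryocyte marker list moved in the same direction, and its own part in the lower P2ry1 was not tested. The number of list genes called, 3 in all, was 12 without HLU 2, 10 without HLU 3, 7 without Control 3 or Control 5, 6 without HLU 5, 5 without Control 8 and 1 without HLU 1, 6 or 7. Calls over all 16973 features moved as well, from 188 higher and 808 lower with every mouse. They were 363 and 1385 without HLU 2, 310 and 1170 without HLU 3, and 242 and 1028 without Control 3. Without Control 5 they were 255 and 1121, without HLU 5 139 and 904, and without Control 8 206 and 608. Without HLU 1, 6 or 7 they were 141 and 488, 139 and 549, and 117 and 471.

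Well expressed nitric oxide genes differed by less than the spread between mice. Vasp, a target of the cyclic GMP kinase, was at 41.6 ± 9.30 RPKM in control and 34.3 ± 8.03 in HLU mice (exact permutation p = 0.0999), and Pts, an enzyme of cofactor synthesis, at 37.1 ± 8.36 and 35.5 ± 8.97 (exact permutation p = 0.697). Among the purinergic genes, Gja1, whose product connexin 43 forms channels that release ATP from osteocytes, was at 81.9 ± 28.5 and 92.9 ± 25.9 RPKM (exact permutation p = 0.356). Adk, adenosine kinase, was at 36.7 ± 2.86 and 39.5 ± 4.56 (exact permutation p = 0.173), and Alpl, tissue-nonspecific alkaline phosphatase, at 28.9 ± 12.5 and 29.4 ± 13.3 (exact permutation p = 0.900).

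By mean RPKM over the 16 mice, which is a level per length, the order was Ptgs1 (12.7), Ptgis (11.7), P2ry2 (3.16), P2rx7 (2.43), Ptger4 (1.73), Ptger2 (1.53), Nos3 (0.887), Ptges (0.756), Nos2 (0.298) and Ptgs2 (0.206). Neighbours in this order were compared within mice by an exact permutation test of paired log2 values, adjusted over 9 pairs. Ptgs1 and Ptgis (adjusted p = 0.236), P2ry2 and P2rx7 (0.236), Nos3 and Ptges (0.681) and Nos2 and Ptgs2 (0.236) did not differ beyond their spread in these exact tests. Ptgis exceeded P2ry2, P2rx7 exceeded Ptger4 and Ptges exceeded Nos2 in 16 of 16 mice (exact adjusted p = 9.16e-05 for each). Ptger4 exceeded Ptger2 in 11 of 16 mice (exact adjusted p = 0.0293) and Ptger2 exceeded Nos3 in 13 (exact adjusted p = 0.00364). The lengths behind RPKM are those implied by the files, and they differ from the exons of GENCODE M21. They were 8816 against 3931 bases for Ptges, 3000 against 3927 for P2ry2 and 7587 against 5970 for P2rx7. The order and its tests therefore hold for the implied lengths only, and other lengths can change it.

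The spread between mice of the same group separated the genes more than unloading did. P2rx7 and Ptger4 were among the steadiest, with a within-group SD of 0.17 and 0.18 on the log2 scale, larger than that of only 4.07% and 5.34% of the 16973 features. Ptger2 (0.28), Ptgs1 (0.32) and Ptges (0.34) were below the median of all features, 0.43. P2ry2 (0.62), Nos3 (0.80) and Ptgis (0.93) were above it, and Ptgis exceeded 88.2% of all features and 95.3% of the 2548 features of similar level. Among features of similar level to each, P2ry2 exceeded 75.0% and Nos3 66.3%, so their spread was less unusual. In the same comparison Ptgs1 exceeded 44.8%, Ptger2 11.4%, Ptges 11.3%, P2rx7 2.37% and Ptger4 1.48%.

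The wide spread was shared between some of these genes. Correlations were computed over the 16 mice on log2(RPKM + 0.1) with the mean of each group removed, with 100000 permutations within groups and Benjamini-Hochberg adjustment over the 28 pairs of the 8 genes. Of these pairs 7 were positive and 3 negative at an adjusted permutation p under 0.05. The share of pairs of all features that would pass was not computed, so these counts cannot be called particular to these genes. Ptgis and Nos3, both enzymes known from vessel walls, rose and fell together (Pearson r = 0.83, adjusted permutation p = 0.00462, Spearman rho 0.79, adjusted permutation p = 0.00770), with r = 0.87 in control and 0.84 in HLU mice and 0.86 without the 2 mice farthest from the median of Ptgis. On either side of the gap in Ptgis, with 8 mice each, r was 0.34 above and 0.19 below. Splitting the mice on Ptgis narrows its range, which lowers r by itself. Nos3 and P2ry2 correlated as closely (r = 0.83, adjusted permutation p = 0.00462, rho 0.84, adjusted permutation p = 0.00644, 0.78 without the 2 farthest mice). Ptgis and P2ry2 had r = 0.68 (adjusted permutation p = 0.0214, rho 0.70), with 0.39 and 0.42 on the sides of the gap.

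Ptges followed Ptgis (r = 0.71, adjusted permutation p = 0.0214, rho 0.64), with r = 0.92 in control and 0.29 in HLU mice, a difference that was not tested. Without Control 1 and Control 2, where Ptgis was lowest, r was 0.48, so the relation rests in part on these mice. Ptgs1 moved with both receptors, with r = 0.70 for Ptger2 (adjusted permutation p = 0.00513, rho 0.67) and 0.68 for Ptger4 (adjusted permutation p = 0.0214, rho 0.71). Ptger4 moved with P2rx7 (r = 0.72, adjusted permutation p = 0.0214, rho 0.70), more closely in HLU (0.93) than in control mice (0.41) by value, without a test of the difference. After median-of-ratios rescaling Ptgs1 and Ptger4 (r = 0.39, adjusted permutation p = 0.211) and Ptger4 and P2rx7 (0.48, adjusted permutation p = 0.192) no longer passed.

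P2ry2 moved against the other group of genes. Its r was -0.68 with Ptger4 (adjusted permutation p = 0.0214, rho -0.72), -0.61 with P2rx7 (adjusted permutation p = 0.0491, rho -0.64) and -0.59 with Ptgs1 (adjusted permutation p = 0.0485, rho -0.52). The last was -0.41 without HLU 1 and HLU 7 and passed the threshold for r but not for rho (adjusted permutation p = 0.112). After rescaling P2rx7 and P2ry2 had r = -0.53 and no longer passed (adjusted permutation p = 0.107). With all 10 genes and 45 pairs, 10 were positive and 1 negative. Nos2, at few reads, moved with Nos3 (r = 0.90, adjusted permutation p = 0.00135, rho 0.95), with P2ry2 (r = 0.84, adjusted permutation p = 0.0036, rho 0.85) and with Ptgis (r = 0.70, adjusted permutation p = 0.0215, rho 0.81). No pair with Ptgs2 passed.

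**Figure D3:**
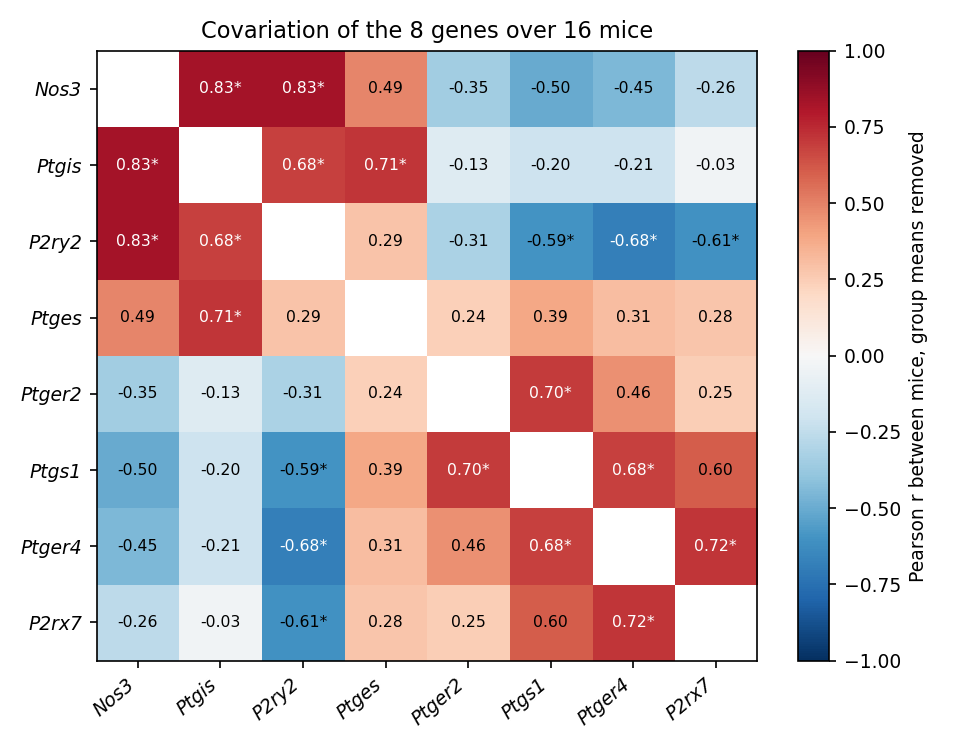
Pearson r between mice for each pair of the 8 genes, over 16 mice with group means removed, with red for positive and blue for negative values and a star at an adjusted permutation p under 0.05. Nos3, Ptgis and P2ry2 form a positive block (0.68 to 0.83), and P2ry2 is negative with Ptgs1, Ptger4 and P2rx7 (-0.68 to -0.59).

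These patterns moved with the content of the libraries. P2ry2 followed the share of reads outside the kept features over the 16 mice (r = 0.97, adjusted permutation p = 0.00024, rho 0.95, 24 relations tested, 0.94 without the 2 farthest mice), from 1.59 RPKM at 7.08% in Control 1 to 6.88 RPKM at 24.2% in HLU 7. Nos3 (r = 0.86, adjusted permutation p = 0.0018) and Ptgis (0.69, adjusted permutation p = 0.0161) rose with that share, and Ptgs1 and Ptger4 fell with it (both -0.68, adjusted permutation p = 0.026). Nos3 (r = 0.76), Ptgis (0.71) and P2ry2 (0.62) also rose with the GC slope of a library, the change in log2 level per 10 percentage points of transcript GC (adjusted permutation p = 0.0102, 0.0222 and 0.0431). Their transcripts have a GC content of 58.2%, 56.6% and 56.5%, against a median of 49.1% for the tested genes. With the share removed as well as the group mean, r was 0.0011 for Nos3 and P2ry2, 0.05 for Ptgis and P2ry2 and -0.15 for Ptger4 and P2ry2. It was 0.64 for Ptgis and Nos3 (adjusted permutation p = 0.0611) and 0.78 for Ptges and Ptgis (adjusted permutation p = 0.00966), and 2 of 28 pairs passed. With the GC slope removed, r was 0.70 for Nos3 and P2ry2 and 0.64 for Ptgis and Nos3, and 8 pairs passed. Ptges and Ptgis (r = 0.50, adjusted permutation p = 0.129) and Ptgis and P2ry2 (0.43, adjusted permutation p = 0.178) lost their calls in that setting. The part of either measure in the shared pattern was not tested.

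**Figure D4:**
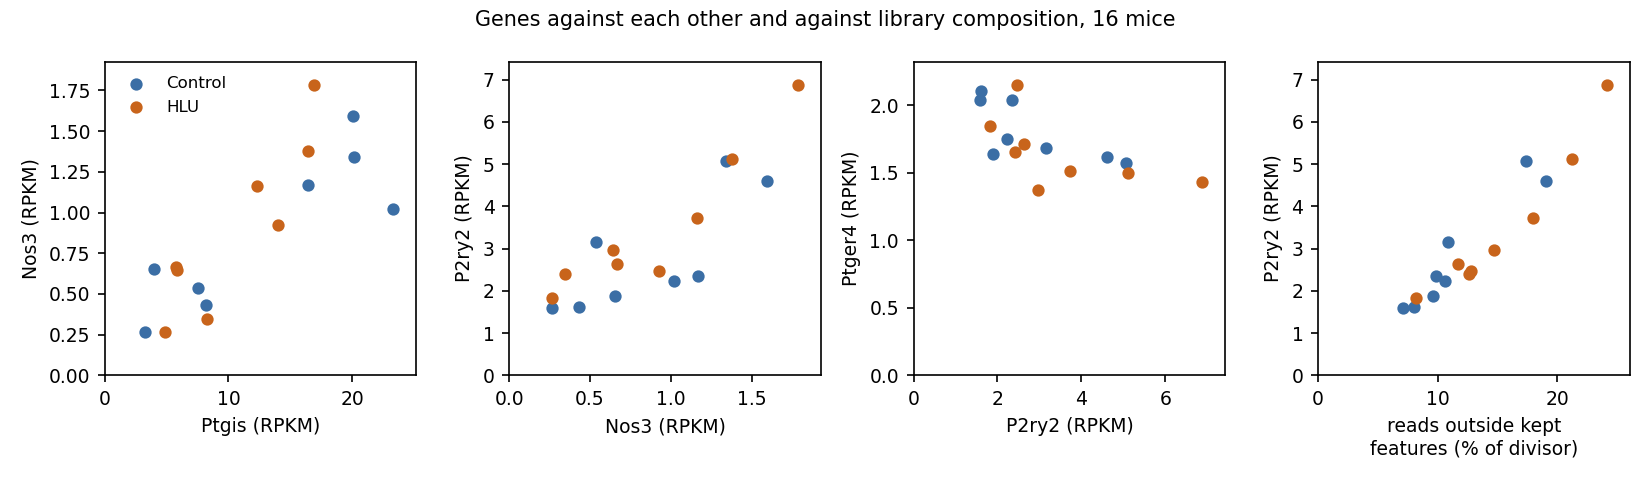
RPKM of Nos3 against Ptgis, P2ry2 against Nos3 and Ptger4 against P2ry2, and P2ry2 against the percentage of reads outside the kept features, with 1 point per mouse (control blue, HLU orange, linear axes). The 2 groups lie along the same courses, and P2ry2 climbs from 1.59 RPKM at 7.08% to 6.88 RPKM at 24.2%.

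Against marker lists of 11 cell types, 88 relations were computed, of which 14 were positive and 4 negative at an adjusted permutation p under 0.05. The share of all features that would pass with these lists was not computed. Nos3 followed the markers of mural cells, the smooth muscle cells and pericytes of vessels (r = 0.95, adjusted permutation p = 0.00088), and of endothelium (0.88, adjusted permutation p = 0.00198), where the gene is known to be expressed. Ptgis followed endothelial (0.87) and mural markers (0.86, adjusted permutation p = 0.00198 for both) and the osteoblast and osteocyte list (0.81, adjusted permutation p = 0.00913). Adipocyte markers rose with Ptgis (0.79) and Nos3 (0.77). Neutrophil markers fell as Nos3 (-0.77), P2ry2 (-0.77) and Ptgis (-0.63) rose.

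Ptgs1, the cyclooxygenase of platelets, followed erythroid (0.77, adjusted permutation p = 0.0204), neutrophil (0.76, adjusted permutation p = 0.0343) and megakaryocyte markers (0.75, adjusted permutation p = 0.0368). The neutrophil relation was 0.13 in control and 0.89 in HLU mice and 0.59 without HLU 1 and HLU 7. P2rx7 followed macrophage markers (0.74, adjusted permutation p = 0.0158), and Ptger4 followed those of B cells (0.73, adjusted permutation p = 0.0138). P2ry2 rose with mural markers (0.76, adjusted permutation p = 0.0131) and fell with those of B cells (-0.73, adjusted permutation p = 0.0158). Ptges followed endothelial markers (0.68, adjusted permutation p = 0.0294), and Ptger2 passed with no list. After rescaling the relations of Ptger4 with B cells (0.56, adjusted permutation p = 0.111) and of Ptges with endothelium (0.56, adjusted permutation p = 0.0858) no longer passed. Nor did those of Ptgs1 with neutrophil, erythroid and megakaryocyte markers (0.71, 0.69 and 0.67, adjusted permutation p = 0.0501, 0.0506 and 0.0858). Newly passing were P2ry2 with endothelium (0.73, adjusted permutation p = 0.0209) and adipocytes (0.67, adjusted permutation p = 0.0408). So were Nos3 with the osteoblast and osteocyte list (0.65, adjusted permutation p = 0.0496) and Ptgs1 with mural markers (-0.65, adjusted permutation p = 0.0293). In all, 12 positive and 5 negative relations passed after rescaling. With the GC slope removed, those of Ptges with endothelium (0.41), Nos3 with adipocytes (0.55) and P2ry2 with mural cells (0.55) were lost. With the share of reads outside the kept features removed P2ry2 was at 0.38 with neutrophil and -0.19 with mural markers, against -0.77 and 0.76, and neither passed. With that share removed 4 of the 88 relations passed, and with the GC slope removed 31 did.

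**Figure D5:**
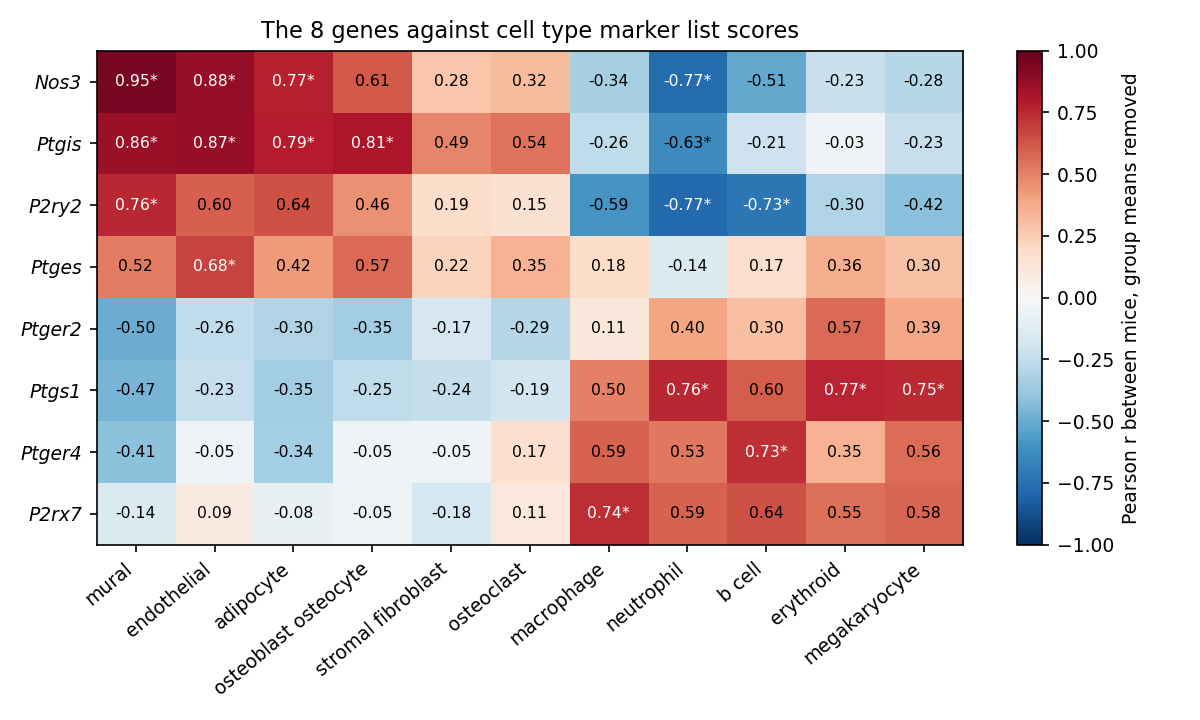
Pearson r between mice of the 8 genes (rows) and the mean log2 level of 11 cell type marker lists (columns), over 16 mice with group means removed, with a star at an adjusted permutation p under 0.05. Nos3, Ptgis and P2ry2 are red with vessel markers (up to 0.95) and blue with neutrophil markers (-0.77 to -0.63), whereas Ptgs1, Ptger4 and P2rx7 are red with blood cell lists.

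The features whose pattern over the 16 mice was most like that of each gene were ranked by Pearson r with group means removed, among about 13835 features with a unique symbol and a mean of at least 1 RPKM. They included Kank3 (0.97) and Nbl1 (0.96) for Ptgis, and were Agpat3 (0.96), Hspa12b (0.95) and Kcnj12 (0.95) for Nos3, and Crhr2 (0.97), Slc41a1 (0.96) and Uqcc (0.96) for P2ry2. For Ptgs1 they were Slc25a51 (0.95), Depdc1b (0.94) and Tfdp1 (0.94), and for Ptges Sec16a (0.93), Arf3 (0.91) and Mtor (0.90). Ptger4 was most like Dido1 (0.90), Zmym3 (0.89) and Prcp (0.89), P2rx7 most like Aknad1 (0.90), Lat2 (0.89) and Trf (0.89), and Ptger2 most like 1110004F10Rik (0.84), Gm10244 (0.84) and Rad51b (0.83). These are the highest of very many values and are given as a description.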

How the data were processed

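The authors prepared TruSeq v2 libraries from the RNA, sequenced 8 per lane on a HiSeq and aligned the reads with TopHat2. The submitters' processing notes name TopHat2, DESeq2 and mm9. The counting tool, the annotation and whether strand was used are not given in the sources used here. If strand was ignored, the limit given for Nos3 also holds for Ptgs1, Ptgis, Ptger2 and Ptger4 where genes on the opposite strand overlap them. The deposited files hold RPKM values per feature and mouse, a unit read from the values, in which composition differences between libraries remain. Whole reads were recovered from the RPKM for 99.994% of the 16973 features kept (relative tolerance 1e-06), and all detection limits cover counting error only.

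The 16 mice were compared, over features averaging 0.5 RPKM or more, on log2(RPKM + 0.1) with limma 3.58.1 (R 4.3.3, trend, Benjamini-Hochberg adjustment over all of them), after tests on simulated data. For single genes an exact permutation test, two-sided, ran through the 12870 splits into 8 and 8 (smallest p 0.000155). Relations between genes used 100000 permutations within groups (smallest p 1e-05), computed in Python 3.11.15 (numpy 2.4.6, pandas 2.3.3, scipy 1.17.1), and plots used matplotlib 3.10.9. Positions, GC content and overlaps are from GENCODE M21 on GRCm38, and promoters from RefSeq. The build of the files differs, so positions serve only as a description.

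The 10 genes (the members) and the lists were chosen with earlier results of these data known. Named in the text are the 10 members, every gene of the 3 pathway lists called at an unadjusted p under 0.05 and 1.2-fold, the 3 best expressed of each list, and the 3 most similar features of each member, of which some results are not reported here. Adora3 was left out because its symbol occurs on several features. Ptges2, listed with the prostanoid genes, was also left out, as its symbol did not stand for a single feature. Alternatives covered the pseudocount, filter, scaling, weights, covariates, limma-voom and each mouse left out.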

Additional observations from a re-analysis of the deposited data

Results flagged for a closer look

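Of 44 groups of 8 mice (22 genes picked by the naming rule, each in both groups), 4 held a mouse whose gap to the nearest other mouse took up more of the group's range than Dixon's 95% critical value. Chance gives about 1 such group in 20. Ptger2 was at 2.42 RPKM in Control 7, with the next control mouse at 1.74. Vasp stood apart in the same mouse, at 61.7 RPKM against 44.3. Pla2g12a was at 22.5 RPKM in HLU 6, with the next HLU mouse at 16.6, and Alpl was at 58.0 RPKM in HLU 1, with the next at 34.7. Without Control 7 the log2 difference of Ptger2 was 0.06 instead of -0.03, and it was not called either way.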

How the results depend on the processing

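None of the 10 genes passed the adjusted threshold under any alternative, and among all features 1 passed without a filter (of 29628), 1 without HLU 2 and 1 with the share of reads outside as a covariate (of 16973 each). At the unadjusted threshold 1 gene was called after median-of-ratios rescaling, after quantile normalization and with the GC slope as a covariate (1 each, Ptges at log2 0.46, 0.41 and 0.38), and 1 with the share of reads outside the kept features as a covariate (Nos3 at -0.54). Leaving out 1 mouse gave 0 to 1 called genes (Ptges, without Control 5) and log2 fold changes of 0.29 to 0.45 for Ptges, -0.35 to 0.0499 for Ptgis, -0.0718 to 0.0631 for Ptger2, -0.17 to 0.19 for Nos3, -0.0279 to 0.0486 for P2rx7, 0.16 to 0.45 for P2ry2, -0.27 to -0.12 for Ptgs1 and -0.18 to -0.10 for Ptger4. Signs turned for Ptgis, Ptger2, Nos3 and P2rx7, at -0.12 to 0.01 as reported, and for Ptgs1 (-0.22) and P2ry2 (0.31). None of the 6 was called as reported. Ptgs1 was at 0.0005 and P2ry2 at -0.0341 with the marrow marker score, and P2ry2 at -0.16 with the share outside. Ptger2 was at 0.0589 after rescaling (in the exact permutation test too), 0.0499 after quantile normalization, 0.0861 with the marrow score, 0.015 with the osteoblast and osteocyte score and 0.0676 with the share outside. Nos3 was at -0.0065 after quantile normalization, -0.076 with array weights, -0.36 with the marrow score, -0.21 with the osteoblast score and -0.0557 without the 2 smallest libraries, where P2rx7 was at -0.0171. The causes were not tested.

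Genes of the pathway lists called at the unadjusted threshold, 3 in all, were 1 after rescaling, 5 with array weights, 0 with the marrow score and 6 in limma-voom, and 1 to 12 with 1 mouse left out. Over all 16973 features, 381 were higher and 394 lower after rescaling, and 225 and 1208 with array weights. With the marrow score 128 were higher and 316 lower, and in limma-voom 183 and 915. Pairs of members that passed, 10 in all, were 2 with the share outside removed. Relations with marker lists, 18 in all, were 31 with the GC slope and 4 with the share removed. Mice with the same number correlated at r -0.17 to 0.51 (8 pairs, 3 over 0.1), and the closest partner had the same number in 1 pair (number 4). The main fit did not treat the numbers as pairs, and whether they mark a shared batch was not tested. With the replicate block 0 genes were called and 199 features were higher and 840 lower. Ptgs2 and Nos2 were limited by depth, and 8 mice per group left intervals that include changes of 1.2-fold for every gene except P2rx7.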

Other observations

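Some genes of the pathway lists outside the naming rule stood out after their values were seen. Arg1, an arginase that competes with nitric oxide synthases for arginine, lay below the filter. It was at 0.155 ± 0.119 RPKM in control and 0.292 ± 0.101 in HLU mice, with 8 of 8 HLU mice above the control median (exact permutation p = 0.0238). Its lowest control value was 0 RPKM, and 3 reads on a gene of 1 kilobase corresponded to 0.14 to 0.42 RPKM, so Arg1 lay near the detection limit. Pla2g4b, a cytosolic phospholipase gene, was at 0.645 ± 0.150 and 0.520 ± 0.0827 RPKM, with 8 of 8 HLU mice below the control median (exact permutation p = 0.0775). P2ry6, a receptor for UDP, was at 2.21 ± 0.507 and 1.85 ± 0.211 RPKM, again with 8 of 8 HLU mice below the control median (exact permutation p = 0.0957). Nos1, the neuronal synthase, was at 0.971 ± 0.502 and 1.65 ± 0.936 RPKM, with 7 of 8 HLU mice above the control median (exact permutation p = 0.0877). None of these differences passed an adjusted threshold. The share of all features with 8 of 8 HLU mice on the same side of the control median was not computed. Over all features tested the median log2 fold change was -0.10, so lower values in HLU mice were common.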
